A study of Homo sapiens with 12 samples.

Results

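Expression of 10 genes that encode amino acid transporters, or the partner chain of one, was examined in RCC4 cells after knockdown of the HIF transcription factors. The genes were *SLC7A5*, *SLC3A2*, *SLC7A11*, *SLC7A1*, *SLC7A6*, *SLC1A5*, *SLC1A4*, *SLC38A1*, *SLC38A2* and *SLC43A2*. They were chosen by symbol, as a list of 10 genes of the 23106 in each library, and measured values were not used in the rule. Earlier results of these data were known when the list was chosen. RCC4, an established line of human clear cell renal carcinoma (ccRCC), lacks functional VHL, so that HIF-1α and HIF-2α persist at normal oxygen. Poly(A) RNA was sequenced from 12 libraries, 3 numbered replicates of each of 4 siRNA groups, 48 h after transfection. Every dish carried 2 nM siRNA in total. Control cells received 2 nM non-targeting siRNA, HIF1A siRNA cells 1 nM siRNA against *HIF1A* plus 1 nM control siRNA, HIF2A siRNA cells 1 nM siRNA against *EPAS1*, the gene for HIF-2α, plus 1 nM control siRNA, and the double knockdown 1 nM of each HIF siRNA. All groups share 1 line and the same VHL defect. Groups without HIF siRNA therefore have active HIF, and there was no group with restored VHL. Because these are bulk libraries, fewer cells of a kind and less RNA per cell cannot be told apart.

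Cells import amino acids through families of membrane carriers. LAT1, the product of *SLC7A5*, imports large neutral amino acids such as leucine in exchange for internal glutamine, and reaches the plasma membrane as a heterodimer with the 4F2 heavy chain, the product of *SLC3A2*. The same heavy chain carries the light chains encoded by *SLC7A11* (xCT, the cystine/glutamate exchanger) and *SLC7A6* (y+LAT2, which exchanges cationic for neutral amino acids). CAT1 (*SLC7A1*) takes up arginine and lysine, ASCT2 (*SLC1A5*) and ASCT1 (*SLC1A4*) exchange small neutral amino acids, SNAT1 and SNAT2 (*SLC38A1* and *SLC38A2*) concentrate glutamine and alanine with sodium, and LAT4 (*SLC43A2*) passes branched-chain amino acids without a heavy chain. *SLC7A5* is a known HIF-2 target in VHL-deficient renal carcinoma cells, and many of these genes are also known targets of ATF4, the transcription factor of the amino acid response.

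Since HIF binds DNA at a short core, the bases before the start sites of the 3 members that changed in at least 1 comparison are shown. They are the 250 bases before the RefSeq start site of each gene (GRCh38.p14, 5′ to 3′ on the gene's strand). The capitals mark the motifs searched on both strands, which were the HIF core (ACGTG or GCGTG), the E-box CACGTG (which holds the HIF core), the amino acid response core TGATGNAA and the antioxidant response core TGACNNNGC.
*SLC7A5*, chr16:87869508-87869757, minus strand: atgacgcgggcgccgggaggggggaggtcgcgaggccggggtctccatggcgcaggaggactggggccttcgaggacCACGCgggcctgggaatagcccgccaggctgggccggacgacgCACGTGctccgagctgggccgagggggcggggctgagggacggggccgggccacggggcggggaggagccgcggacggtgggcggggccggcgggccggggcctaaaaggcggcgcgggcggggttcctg
*SLC7A1*, chr13:29595689-29595938, minus strand: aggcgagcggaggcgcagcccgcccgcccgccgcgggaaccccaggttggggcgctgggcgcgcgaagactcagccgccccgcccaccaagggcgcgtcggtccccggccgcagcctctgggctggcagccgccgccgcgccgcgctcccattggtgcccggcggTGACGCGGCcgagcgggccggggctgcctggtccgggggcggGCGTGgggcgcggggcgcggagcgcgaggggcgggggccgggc
*SLC38A2*, chr12:46372774-46373023, minus strand: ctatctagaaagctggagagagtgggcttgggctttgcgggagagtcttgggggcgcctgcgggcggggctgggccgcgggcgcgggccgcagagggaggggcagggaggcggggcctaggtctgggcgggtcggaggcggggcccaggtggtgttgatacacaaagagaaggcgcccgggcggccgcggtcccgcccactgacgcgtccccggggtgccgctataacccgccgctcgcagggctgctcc
The *SLC7A5* stretch held a HIF core on the opposite strand at -173 and an E-box at -130, both counted from the start site. In *SLC7A1* an antioxidant response core lay at -85 and a HIF core at -43. The *SLC38A2* stretch held no match. A RefSeq window of 300 bases (250 before and 50 after the start) was matched for 9 of the 10 members, with 17 windows in all, because some genes have more than 1 start. *SLC7A11* was not matched. Of these 17 windows, 14 held a HIF core, beside 48.4% of all 35116 windows, and 2 an E-box, beside 7.26%. An amino acid response core was in 5 of the 17, beside 3.62%, and an antioxidant response core in 5, beside 13.3%. Several windows belong to the same gene, and 8 of the 9 members had a HIF core in at least 1 of theirs. The 2 members with an E-box were *SLC7A5* and *SLC1A5*. These matches describe letters and do not show binding.

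The libraries held 13263168 to 20451433 counts. Levels are given as counts per 1000000 (CPM), scaled by TMM, and changes as log2 differences from edgeR's quasi-likelihood fit of all 12 libraries, with the replicate number as a block. A gene changed when its Benjamini-Hochberg adjusted p over 13000 tested genes was under 0.05. The siRNAs lowered their targets. *HIF1A* had 96.7 ± 33.6 CPM (SD, n = 3) in control cells, 18.3 ± 3.62 with HIF1A siRNA, 121 ± 13.3 with HIF2A siRNA and 28.7 ± 4.09 in the double knockdown. *EPAS1* had 157 ± 16.9, 114 ± 17.7, 10.1 ± 1.53 and 8.94 ± 2.16 CPM in the same order. *CA9*, a known HIF target and ccRCC marker, fell from 226 ± 73.2 CPM in control cells to 18.7 ± 8.69 with HIF1A siRNA, and had 305 ± 104 CPM with HIF2A siRNA. All 9 markers of renal epithelium and ccRCC were detected, with a summed level of 4.5e+03 to 7.35e+03 CPM. *PTPRC* and *CD3E* of the 4 leukocyte markers were at 0 in every library (summed level 33.1 to 65.5 CPM, nearly all *CD68*), the 4 endothelial markers summed to at most 0.432 CPM, and the 5 fibroblast and pericyte markers to 21.4 to 84.6 CPM.

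All 10 transporter genes passed the filter on low counts. Compared per kilobase of canonical transcript, the control levels spanned a wide range. *SLC3A2* (159 CPM per kb), *SLC7A5* (148) and *SLC1A5* (132) were the most abundant, followed by *SLC38A1* (66.4), *SLC7A1* (25.7), *SLC38A2* (23.6) and *SLC7A6* (11.8). *SLC1A4* (7.65), *SLC7A11* (4.63) and *SLC43A2* (0.291 CPM per kb, 24 to 105 counts per library over all groups) were the lowest, so that values for *SLC43A2* rest on few counts. The mRNA of the 4F2 heavy chain was thus of the same order as that of LAT1, its most abundant light chain of the 3 measured here.

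**Figure D1:**
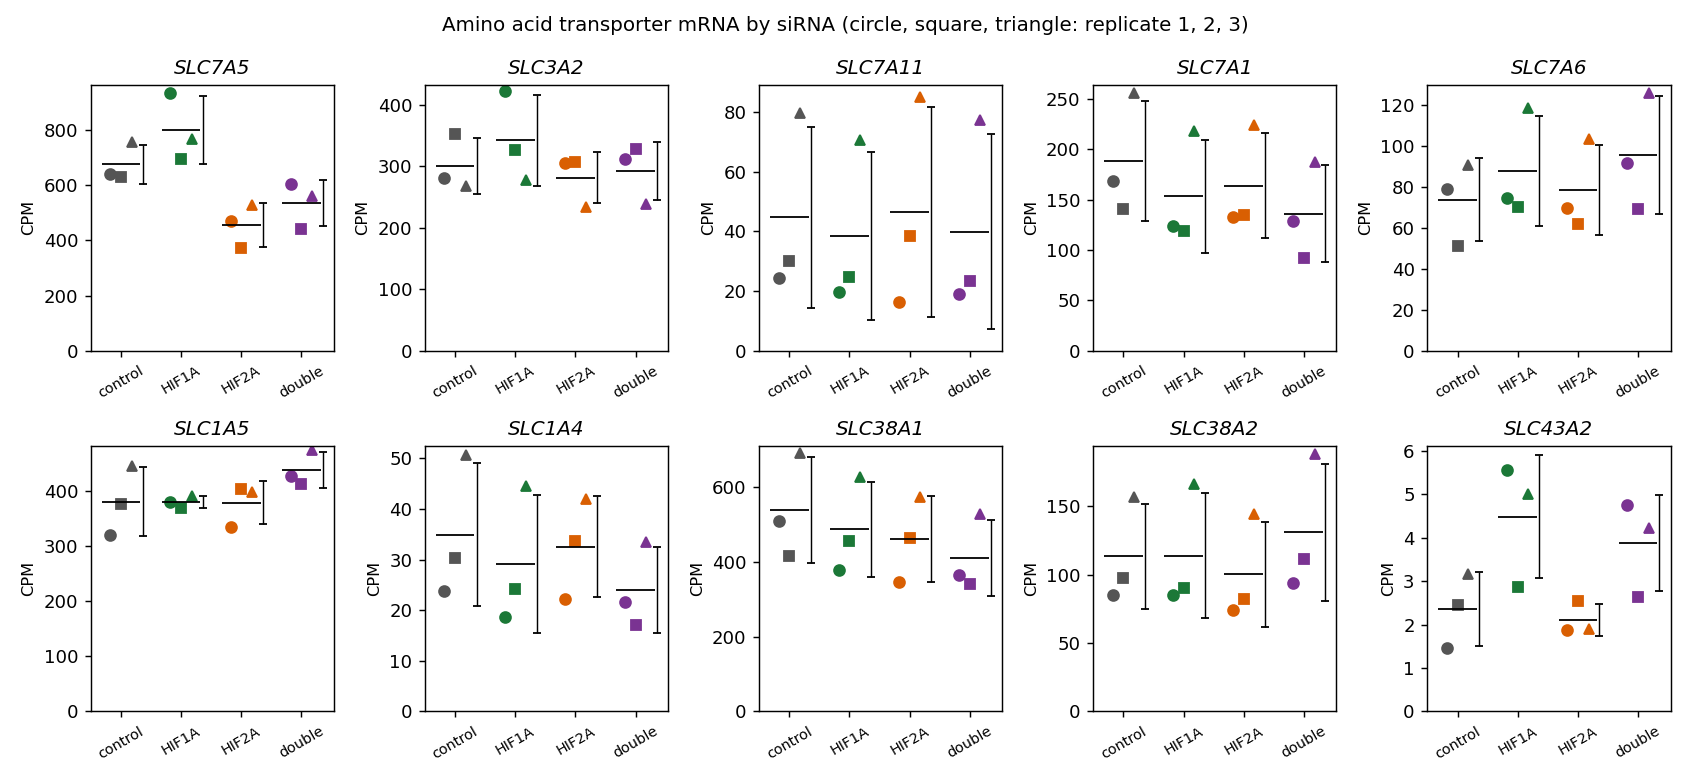
Level of the 10 transporter genes in CPM (vertical axis, starting at 0, a different scale in each panel) in the 12 libraries, by siRNA group (horizontal axis). Symbols stand for replicate numbers 1 to 3, horizontal lines for group means and bars for ± 1 SD (n = 3). *SLC7A5* is lower in all 3 libraries with HIF2A siRNA than in any control library, whereas for *SLC7A11*, *SLC7A1* and *SLC38A2* replicate 3 (triangles) stands highest in every group.

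*SLC7A5* separated the siRNAs. Its mRNA was 1.76-fold higher with HIF1A siRNA than with HIF2A siRNA, and 0.669 times as high in the double knockdown as with HIF1A siRNA alone. The levels were 639, 630 and 755 CPM in the control libraries (replicates 1, 2 and 3), and 935, 694 and 766 CPM with HIF1A siRNA. With HIF2A siRNA they were 468, 371 and 529 CPM, and in the double knockdown 603, 443 and 562 CPM. Both groups that received HIF2A siRNA lay below both groups that did not, with no overlap of any library. Against HIF2A siRNA, the level with HIF1A siRNA was higher by 0.81 on the log2 scale (SE 0.116, edgeR adjusted p = 0.00066), with 0.996, 0.903 and 0.534 in the replicate pairs. The double knockdown lay below HIF1A siRNA by a log2 difference of -0.58 (SE 0.115, edgeR adjusted p = 0.018), lower in 3 of 3 pairs.

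Against control cells, *SLC7A5* did not pass the threshold in any comparison. With HIF2A siRNA the difference was -0.58 (SE 0.115, edgeR adjusted p = 0.061), with -0.447, -0.763 and -0.513 in the pairs, and it passed with DESeq2 in place of edgeR (-0.57, adjusted p = 0.00096). In the double knockdown it was -0.34 (SE 0.115, edgeR adjusted p = 0.069). With HIF1A siRNA it was 0.24 (SE 0.115, edgeR adjusted p = 0.6), of which replicate 1 gave 0.549, replicate 2 gave 0.140 and replicate 3 gave 0.021. The order of the group means was therefore HIF1A siRNA, control, double knockdown and HIF2A siRNA, and no neighbors in it passed the test (the double knockdown and HIF2A siRNA had edgeR adjusted p = 0.3). HIF2A siRNA thus gave -0.58 both on its own and on top of HIF1A siRNA, and the interaction of the siRNAs was -0.0022 (SE 0.162). The pairs of the double knockdown and HIF1A siRNA differed by -0.632, -0.648 and -0.448. That call was lost when any library of the double knockdown (edgeR adjusted p 0.075, 0.1 and 0.13 without replicates 1, 2 and 3), HIF1A siRNA replicate 1 (0.14) or 2 (0.11), or replicate number 1 (0.11) or 3 (0.31) was left out. The difference between the single siRNAs passed in every such fit.

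**Figure D2:**
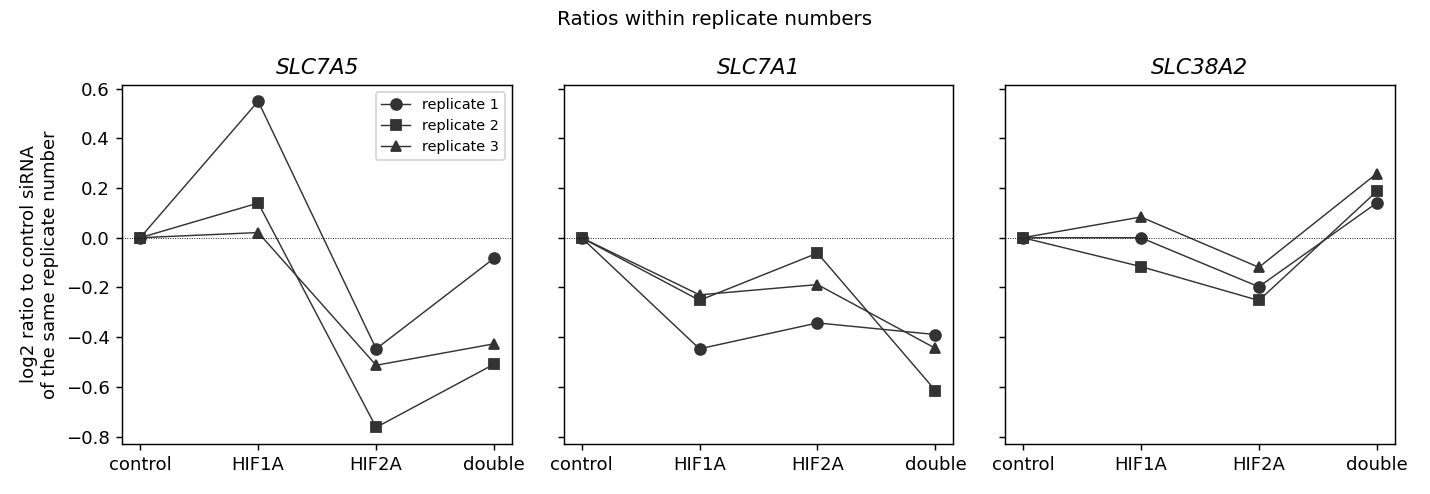
Log2 ratio of each library's CPM to the control library of the same replicate number (vertical axis) for *SLC7A5*, *SLC7A1* and *SLC38A2*, by siRNA group (horizontal axis). Lines join the libraries of 1 replicate number. For *SLC7A5* all 3 lines drop from HIF1A to HIF2A siRNA, for *SLC7A1* all 3 end below 0 in the double knockdown, and for *SLC38A2* all 3 rise from HIF2A siRNA to the double knockdown.

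The partners of the LAT1 system did not pass edgeR's test in any comparison. *SLC3A2*, the heavy chain, had 281, 353 and 267 CPM in control cells and 423, 327 and 277 CPM with HIF1A siRNA. It had 305, 307 and 233 CPM with HIF2A siRNA and 311, 328 and 239 CPM in the double knockdown. The groups overlapped, and the differences from control cells were 0.18, -0.10 and -0.05 in that order (SE 0.118 each). The difference between the single siRNAs, 0.28 (SE 0.118, edgeR adjusted p = 0.34), had the sign of that of *SLC7A5*, with higher values with HIF1A siRNA in 3 of 3 pairs.

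*SLC7A6*, the y+LAT2 light chain, had 79.4, 51.4 and 91.1 CPM in control cells and 92, 69.1 and 126 CPM in the double knockdown. It was higher in the double knockdown in all 3 pairs, by 0.37 (SE 0.116, edgeR adjusted p = 0.057), just outside the threshold, and DESeq2 called it (0.37, adjusted p = 0.032). The single siRNAs gave differences of 0.25 (HIF1A siRNA) and 0.09 (HIF2A siRNA), each with SE 0.116. *SLC7A11*, the xCT light chain, varied with the replicate number and little with siRNA. Its levels were 24.2, 30.2 and 79.7 CPM in control cells and 19.8, 24.6 and 70.7 CPM after HIF1A siRNA. After HIF2A siRNA they were 16.2, 38.4 and 85.2 CPM, and 19, 23.4 and 77.5 CPM in the double knockdown. Replicate 3 was the highest in each group. The differences from control cells were -0.25, -0.01 and -0.24 (SE 0.163, 0.162 and 0.162), and none passed edgeR's test.

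*SLC43A2*, the LAT4 carrier, had 1.47, 2.46 and 3.16 CPM in control cells and 5.56, 2.88 and 5.01 CPM with HIF1A siRNA. It had 1.87, 2.54 and 1.91 CPM with HIF2A siRNA and 4.75, 2.63 and 4.24 CPM in the double knockdown. Its difference with HIF1A siRNA was 0.91 (SE 0.362, edgeR adjusted p = 0.44), and 1.06 between the single siRNAs (SE 0.365, edgeR adjusted p = 0.21). The siRNA groups took 59.5% of its variance, yet its standard error was the largest of the 10 genes.

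*SLC7A1*, the arginine and lysine carrier CAT1, fell in the double knockdown to 0.717 times its control level. It had 169, 141 and 256 CPM in control cells and 129, 92 and 188 CPM in the double knockdown. The ranges overlapped because replicate 3 was high in both groups, but each double knockdown library lay below the control library of its number, by -0.390, -0.615 and -0.445. The fitted difference was -0.48 (SE 0.108, edgeR adjusted p = 0.0094).

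*SLC7A1* had 124, 118 and 218 CPM with HIF1A siRNA and 133, 135 and 224 CPM with HIF2A siRNA. The means of these groups, 153 and 164 CPM, lay between those of the double knockdown (136 CPM) and control cells (188 CPM). The libraries of both were lower than control in 3 of 3 pairs, with fitted differences of -0.31 (SE 0.107, edgeR adjusted p = 0.3) and -0.20 (SE 0.107, edgeR adjusted p = 0.77). The double knockdown call was lost without double knockdown replicate 2 (-0.38, edgeR adjusted p = 0.073), without replicate number 3 (-0.49, edgeR adjusted p = 0.19) and without the replicate block (-0.47, edgeR adjusted p = 0.74).

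The ASCT exchangers did not pass edgeR's test in any comparison. *SLC1A5* had 320, 376 and 446 CPM in control cells and 428, 413 and 475 CPM in the double knockdown, a difference of 0.21 (SE 0.106, edgeR adjusted p = 0.23). The single siRNAs left it within the control range, at 381, 370 and 392 CPM (HIF1A siRNA) and 335, 404 and 399 CPM (HIF2A siRNA). *SLC1A4*, the serine and alanine exchanger ASCT1, had 23.8, 30.3 and 50.7 CPM in control cells and 21.6, 17.1 and 33.4 CPM in the double knockdown. That difference was -0.50 (SE 0.164, edgeR adjusted p = 0.063), lower in 3 of 3 pairs but by only -0.137 in replicate 1, and DESeq2 called it (-0.50, adjusted p = 0.042). With a single siRNA *SLC1A4* differed from control by -0.28 (HIF1A siRNA, SE 0.163) and -0.07 (HIF2A siRNA, SE 0.162).

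Of the SNAT carriers, 1 changed in 1 comparison. *SLC38A2*, whose mRNA is known to accumulate when amino acids are short, was 1.31-fold higher in the double knockdown than with HIF2A siRNA. It had 74.1, 82.1 and 145 CPM with HIF2A siRNA and 93.8, 112 and 188 CPM in the double knockdown, and rose in every pair, by 0.338, 0.439 and 0.377. The fitted difference was 0.39 (SE 0.0948, edgeR adjusted p = 0.03). This call was lost without any of 7 libraries (control, HIF1A siRNA or HIF2A siRNA replicate 3, HIF2A siRNA replicate 1, and each double knockdown library) or any replicate number, with edgeR adjusted p from 0.05 to 0.35, while the difference stayed between 0.36 and 0.41. It was also lost in a fit of the 6 compared libraries alone (0.39, edgeR adjusted p = 0.21).

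Against control cells, with 85.1, 97.9 and 157 CPM, *SLC38A2* differed by -0.01 with HIF1A siRNA (85.1, 90.3 and 167 CPM, SE 0.0947), by -0.19 with HIF2A siRNA (SE 0.0948) and by 0.20 in the double knockdown (SE 0.0946, edgeR adjusted p = 0.21). None of these passed. Its interaction of the siRNAs had the smallest unadjusted p of the 10 genes, with 0.40 (SE 0.134, edgeR adjusted p = 1). *SLC38A1* had 509, 414 and 690 CPM in control cells and 365, 340 and 527 CPM in the double knockdown, lower in 3 of 3 pairs by -0.482, -0.283 and -0.389. The difference was -0.39 (SE 0.123, edgeR adjusted p = 0.054), which did not pass, whereas DESeq2 called it (-0.38, adjusted p = 0.033). With HIF1A siRNA (378, 456 and 626 CPM) and HIF2A siRNA (345, 462 and 573 CPM) it differed by -0.15 and -0.22 (SE 0.123 each), and replicate 2 went the other way in both.

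**Figure D3:**
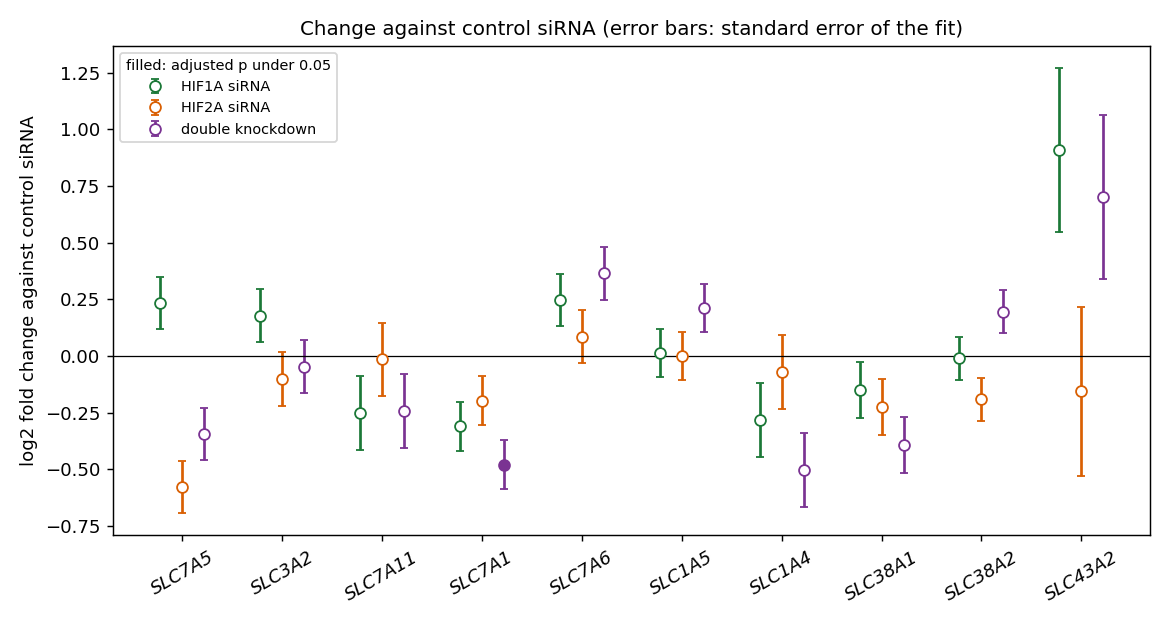
Log2 difference from control siRNA (vertical axis) of the 10 transporter genes (horizontal axis) with HIF1A siRNA, HIF2A siRNA and the double knockdown. Points are estimates of the edgeR fit of 12 libraries (n = 3 per group), bars ± 1 standard error, and filled points have an adjusted p under 0.05, which holds for *SLC7A1* in the double knockdown. The gene with the widest bars is *SLC43A2*, the least abundant.

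Counted over the list, the number of changed transporter genes depended on the tool. With HIF1A siRNA 0 of the 10 changed against control in edgeR's test, beside 1.41% of all tested genes. Of the 10, 3 had an unadjusted p under 0.05, beside 1114 of the 13000 tested genes. DESeq2 also called 0 there, beside 2.29%. With HIF2A siRNA 0 changed in edgeR's test, beside 0.200%, and 1 had an unadjusted p under 0.05, beside 864 of all tested genes. DESeq2 called 1 (*SLC7A5*), beside 0.821% of the 10227 genes to which it gave an adjusted p. In the double knockdown edgeR called 1 (*SLC7A1*), beside 10.4%, a share close to the background. Before adjustment 5 of the 10 had p under 0.05, beside 3294 of all tested genes. DESeq2 called 5 there, beside 14.2%. These were *SLC7A1* with *SLC7A5*, *SLC1A4*, *SLC38A1* and *SLC7A6*, and the 4 added genes had edgeR adjusted p from 0.054 to 0.069.

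Between the knockdowns, 1 gene (*SLC7A5*) changed in the double knockdown against HIF1A siRNA, beside 1.46% of all tested genes. Another (*SLC38A2*) changed in the double knockdown against HIF2A siRNA, beside 4.17%, and *SLC7A5* alone differed between the single siRNAs, beside 2.00%. Before adjustment, 2, 5 and 3 of the 10 had p under 0.05 in that order, beside 1581, 2324 and 1570 of all tested genes. The interaction gave 0 of 10 with edgeR, with 1 at an unadjusted p under 0.05, beside 0.00% of all genes (311 of them at an unadjusted p under 0.05). DESeq2 called 0 of the 10, beside 0.0979% of the genes to which it gave an adjusted p. The median log2 difference of the 10 genes was 0.00 with HIF1A siRNA, -0.13 with HIF2A siRNA and -0.14 in the double knockdown, and 0.00 over all tested genes in each. The comparisons share libraries and are not independent of one another.

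The replicate number, which marks the biological replicate, went with larger differences than the siRNAs for most transporter genes. *SLC7A11*, *SLC7A1*, *SLC7A6*, *SLC1A4*, *SLC38A1* and *SLC38A2* were highest in replicate 3 in all 4 groups. This was 6 of 10 members, and 23.7% of all tested genes had replicate 3 highest in all 4 groups. For *SLC7A11* the level in replicate 3 exceeded the mean of the other replicates by 1.551 to 1.871 on the log2 scale, for *SLC38A2* by 0.781 to 0.926 and for *SLC7A1* by 0.723 to 0.848. *SLC3A2* had the opposite pattern and was lowest in replicate 3 in all 4 groups.

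Of the variance of log2 CPM over the 12 libraries, the replicate number took 94.2% for *SLC7A11*, 89.7% for *SLC38A2* and 78.7% for *SLC7A1*, and siRNA 1.79, 9.69 and 17.4%. *SLC7A5* and *SLC43A2* were the exceptions, with 75.3 and 59.5% for siRNA and 16.7 and 6.35% for the replicate number. Over all tested genes the shares were 26.2% for siRNA and 45.4% for the replicate number. What differed between the replicates (day, passage or medium) is not given in the sources used here, and its part was not tested.

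**Figure D4:**
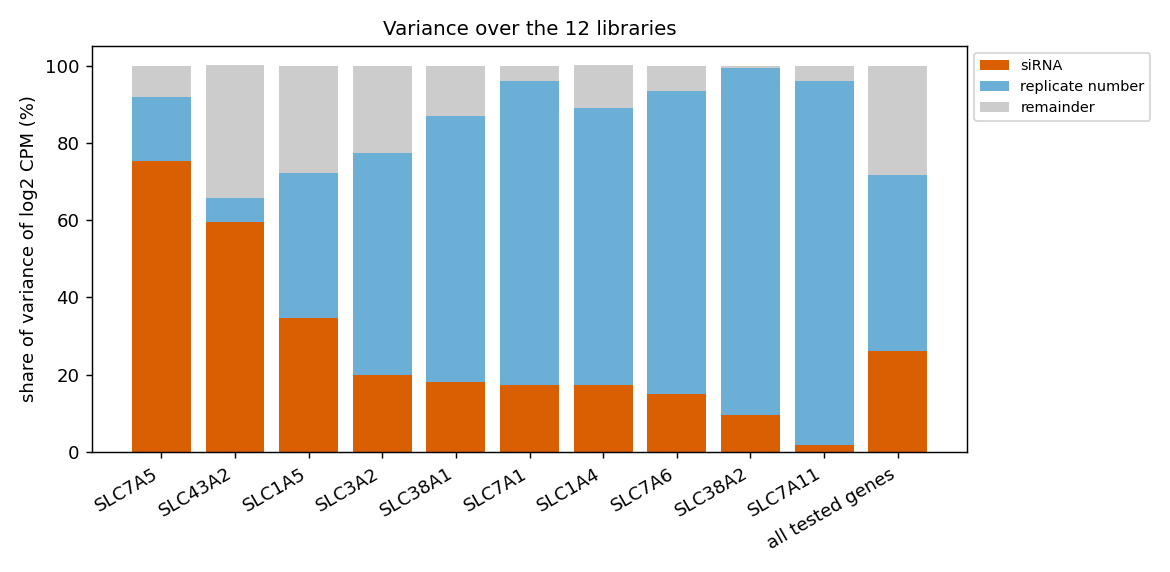
Share of the variance of log2 CPM over the 12 libraries (vertical axis, %) that went with siRNA, with the replicate number and with neither (remainder), for each transporter gene and over all tested genes (horizontal axis). *SLC7A5* has the largest siRNA share, 75.3%, and *SLC7A11* the largest replicate share, 94.2%.

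Other amino acid transporters responded in part. Of 32 further carriers of the plasma membrane and the lysosome, 18 could be tested. With HIF1A siRNA 2 fell and 0 rose, beside 1.41% of all tested genes changed. *SLC1A1*, the glutamate and cysteine carrier EAAT3, had 74.6 ± 15.9 CPM in control cells and 44.4 ± 10.6 with HIF1A siRNA (-0.76, SE 0.119, edgeR adjusted p = 0.0019). *SLC6A8*, the creatine carrier of the same superfamily as several amino acid carriers, fell from 154 ± 15.5 to 97.1 ± 13.3 CPM (-0.67, SE 0.104, edgeR adjusted p = 0.0018). With HIF2A siRNA 0 of the 18 changed in edgeR's test, beside 0.200% of all tested genes, with 3 at an unadjusted p under 0.05. DESeq2 also called 0, beside 0.821%. The smallest p belonged to *SLC36A1* (0.44, SE 0.149, edgeR adjusted p = 0.51) and *SLC6A8* (0.28, SE 0.103, edgeR adjusted p = 0.63).

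In the double knockdown 3 of the 18 rose and 2 fell, beside 10.4% of all tested genes changed. *SLC1A1* fell to 28.6 ± 10 CPM (-1.42, SE 0.121, edgeR adjusted p = 1.5e-06) and *SLC15A4*, a lysosomal histidine and peptide carrier, from 86.2 ± 3.89 to 54.7 ± 9.59 CPM (-0.67, SE 0.109, edgeR adjusted p = 0.0009). *SLC36A1*, the lysosomal proton-coupled carrier PAT1, rose from 13.8 ± 2.14 to 25 ± 6.78 CPM (0.82, SE 0.149, edgeR adjusted p = 0.002). *SLC6A6*, the taurine carrier, rose by 0.39 (SE 0.108, edgeR adjusted p = 0.031). The differences of the 18 ranged from -3.29 to 2.29, with a median of 0.01 beside 0.00 over all genes. Both ends went with carriers of very few counts. *SLC38A5* had 0.618 ± 0.343 CPM in control cells and 0.0575 ± 0.051 in the double knockdown, and *SLC7A2* 0.239 ± 0.134 and 1.16 ± 0.312 CPM. An unadjusted p under 0.05 was found for 11 of the 18, beside 3294 of the 13000 tested genes.

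The amino acid response was followed in 27 tested genes that are not transporters, *ATF4* itself and genes known to be linked to it. With HIF1A siRNA 4 fell and 0 rose, beside 1.41% of all tested genes changed, with a median of -0.17. They were *DDIT4*, an mTORC1 inhibitor also known as a hypoxia-induced gene (142 ± 33.9 to 59.4 ± 15.4 CPM, -1.25, SE 0.13, edgeR adjusted p = 2.4e-05), *SHMT2*, the mitochondrial serine hydroxymethyltransferase (-0.88, SE 0.104), *GPT2*, the mitochondrial alanine aminotransferase (-0.78, SE 0.12), and *STC2*, a secreted glycoprotein (-0.70, SE 0.107). The rest of the list did not pass edgeR's test with HIF1A siRNA, among them *ASNS* (75.8 ± 28.1 CPM in control cells and 62.1 ± 20.7 with HIF1A siRNA) and *DDIT3* (18.1 ± 0.597 and 18.4 ± 2.87 CPM). With HIF2A siRNA 1 fell, beside 0.200% of all tested genes changed. It was the pseudokinase gene *TRIB3*, from 220 ± 12.1 to 128 ± 10.2 CPM (-0.78, SE 0.107, edgeR adjusted p = 0.0038). In the double knockdown 7 fell and 3 rose, beside 10.4% of all tested genes changed, with a median of -0.14 and a range of -2.22 to 0.79. *DDIT4* (-2.22, SE 0.135), *TRIB3* (-1.40, SE 0.108) and *STC2* (-1.13, SE 0.107) fell furthest of those named. In the other direction, *PSAT1* of amino acid synthesis had 57.9 ± 14.8 CPM in control cells and 99.3 ± 18.5 in the double knockdown. *ATF4* itself differed from control by -0.18, -0.14 and -0.14 (SE 0.0988 each) with HIF1A siRNA, HIF2A siRNA and both.

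Among 19 tested cytosolic aminoacyl-tRNA synthetases, which charge tRNAs with amino acids, edgeR called 0 for either single siRNA. Over all tested genes it called 1.41% (HIF1A siRNA) and 0.200% (HIF2A siRNA). An unadjusted p under 0.05 was found for 0 of the 19 with either, beside 1114 and 864 of the 13000 tested genes. DESeq2 also called 0 of the 19, beside 2.29% of all tested genes and 0.821% of those to which it gave an adjusted p. In the double knockdown *FARSB*, a subunit of the phenylalanine enzyme, rose from 84 ± 1.42 to 109 ± 1.64 CPM (0.37, SE 0.102, edgeR adjusted p = 0.03). It was 1 of the 19, and 0 fell, beside 10.4% of all tested genes changed. Of 28 tested genes of mTORC1 and of the sensing and signaling upstream of it, 2 fell with HIF1A siRNA, beside 1.41% of all tested genes changed. They were *C7orf60*, which encodes the methionine-linked sensor SAMTOR (14.6 ± 1.29 to 6.36 ± 2.38 CPM, -1.26, SE 0.225, edgeR adjusted p = 0.0057), and *RRAGA*, a Rag GTPase (-0.50, SE 0.119, edgeR adjusted p = 0.05 after rounding). With HIF2A siRNA 0 of the 28 changed in edgeR's test, beside 0.200% of all tested genes, with 3 at an unadjusted p under 0.05. DESeq2 also called 0, beside 0.821%. In the double knockdown 4 fell, *C7orf60* (-1.76), *RRAGA* (-0.65), *RRAGD* (-0.75) and *RHEB* (-0.40), and 1 rose, beside the same 10.4%.

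Genes that use glutamine and cystine, which *SLC1A5*, *SLC38A1*, *SLC38A2* and *SLC7A11* bring into the cell, were counted as well. Of 17 tested, edgeR called 0 with HIF1A siRNA (2 at an unadjusted p under 0.05, and 1, *CHAC2*, with DESeq2) and 0 with HIF2A siRNA (1 before adjustment at 0.05, 0 with DESeq2). Over all tested genes edgeR called 1.41 and 0.200% in these comparisons, and DESeq2 2.29 and 0.821%. *GPX4*, the glutathione peroxidase that protects lipids, rose in the double knockdown (0.38, SE 0.113, edgeR adjusted p = 0.044). It was 1 of the 17, beside 10.4% of all tested genes changed. A further list held 9 genes, transcription factors known to act on transporter genes and a regulator of such a factor. Of these, edgeR and DESeq2 called 0 with either single siRNA (unadjusted p under 0.05 for 0 and 1, respectively), beside the shares and counts just given. *BACH1*, a repressor of antioxidant genes, fell in the double knockdown (-0.68, SE 0.198, edgeR adjusted p = 0.039), as 1 of the 9, beside the same 10.4%. *MYC*, a known activator of *SLC7A5* and *SLC1A5*, had 186 ± 11.8, 171 ± 12, 194 ± 34.9 and 190 ± 18.7 CPM in control, HIF1A siRNA, HIF2A siRNA and double knockdown cells.

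The genes most like each changed member were found by the root mean square difference of log2 CPM over the 12 libraries, after the mean of each replicate number was removed. For *SLC7A5* these were *PORCN* (0.101), *RAB3IP* (0.116) and *EIF3J* (0.13), where *SLC7A5* itself varied by 0.327. *PORCN* differed from control by 0.08, -0.60 and -0.48 with HIF1A siRNA, HIF2A siRNA and both, and *EIF3J* by 0.06, -0.55 and -0.39. For *SLC7A1*, which varied by 0.194, they were *KIAA0226* (0.0431), *KRT80* (0.0721) and *CMIP* (0.0769), and for *SLC38A2*, which varied by 0.141, *PKN3* (0.0471), *TMBIM4* (0.0678) and *ESD* (0.0715). These neighbors were picked from 13000 genes by likeness, so their likeness is a description.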

How the data were processed

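Poly(A) RNA of RCC4 cells was measured in 12 libraries, 3 replicates of each of 4 siRNA groups, taken from the sample labels. The authors trimmed adaptors (Trim Galore), aligned reads to hg19 (HISAT2), discarded fragments with more than 1 mapping (Picard), counted fragments per UCSC gene (HTSeq, intersection-strict) and deposited raw counts of 23106 symbols per library, without normalization. The strand setting is not given in the sources used here. The library kit was directional, so reads of overlapping antisense genes may or may not be separated. Excluding fragments that map more than once can lower *SLC7A5*, whose pseudogene copies *SLC7A5P1* and *SLC7A5P2* had 0 to 4 and 11 to 43 counts.

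From these counts, edgeR 4.0.16 (R 4.3.3) was used with TMM scaling, filterByExpr, the quasi-likelihood test with a robust fit and a block for the replicate number. P-values were adjusted by Benjamini-Hochberg over all 13000 tested genes. The replicate number pairs the libraries, as in the study's own paired test. Deviations from group means correlated by 0.0963 to 0.738 between libraries of the same number and by -0.642 to 0.441 between others. The double knockdown, which the study did not analyze, was kept in the fit. Levels per kilobase used the canonical transcripts of GENCODE release 44, and promoter windows came from RefSeq (GRCh38.p14), a newer build than that of the counts.

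The members and gene lists were chosen with earlier results of these data known. Named genes were the 10 members, *HIF1A*, *EPAS1* and *CA9*. From each gene list they were up to 4 genes per comparison with control that passed in the same direction in all 3 pairs. If 0 passed, the rule took the 2 with the smallest p, but these are not given for every list. For each changed member its 3 nearest genes by pattern were named. Of the markers, *CDH6* (1.36, edgeR adjusted p = 0.0001) and *KRT18* (0.49, edgeR adjusted p = 0.024) also rose in the double knockdown. *ATF4*, *MYC*, the members that DESeq2 called, and the gene it called where a list's count was 0 with edgeR were named besides. *SLC38A5*, *SLC7A2*, *ASNS*, *DDIT3* and *PSAT1* were named as well, after their values were seen. In simulated counts with the depth and spread of these libraries, edgeR found 15.2, 23.6 and 25.8% of genes changed by 0.5 on the log2 scale. These shares are for HIF1A siRNA, HIF2A siRNA and both, and for genes changed by 1 they were 68.8, 77.9 and 71%. The same number of genes was changed in each simulation, whereas edgeR called 183, 26 and 1348 genes in the data. The adjusted p depends on that number, so the shares may not hold for these comparisons. Alternatives were DESeq2 size factors, no filter, at least 10 counts in every library, no block, DESeq2 1.42.0, fits of the compared libraries alone, removal of a GC and length trend, and leaving out each replicate number or library.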

Additional observations from a re-analysis of the deposited data

How the results depend on the processing

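All 4 calls rested on the replicate block. Without it, 0 transporter genes changed in each comparison, and the *SLC7A5* difference between the single siRNAs, 0.81, had an edgeR adjusted p of 0.13 in place of 0.00066. The pairing comes from the study's methods. Same-numbered libraries deviated together most clearly in replicate 3, with correlations of 0.641 to 0.738. For numbers 1 and 2 this was less clear. Control replicate 2 correlated by 0.441 with HIF2A siRNA replicate 1 and by 0.216 with HIF2A siRNA replicate 2. Control replicate 1 correlated by 0.103 with HIF2A siRNA replicate 2 and by 0.0963 with HIF2A siRNA replicate 1. DESeq2 size factors and the count minimum of 10 in every library moved no count of changed members. Against control, HIF2A siRNA changed 0 members, and 1 (*SLC7A5*) without a filter, with DESeq2 and with the GC and length trend removed, and 0 to 1 when replicates or libraries were left out (1 without control replicate 1, edgeR adjusted p = 0.021). The double knockdown changed 1 member, 3 without a filter, 3 with the GC and length trend removed, 5 with DESeq2, 5 in the 6 compared libraries, and 0 to 5 with replicates or libraries left out (0 without replicate number 3 or double knockdown replicate 2, 5 without HIF2A siRNA replicate 2, 3 without control replicate 1, and 2 without replicate number 1 or 2, control replicate 2, HIF2A siRNA replicate 1 or double knockdown replicate 1). Against HIF1A siRNA it changed 1 member, and 0 to 1 with replicates or libraries left out. Against HIF2A siRNA it changed 1, 0 in the 6 compared libraries, 2 with the GC and length trend removed (*SLC7A6* added, 0.34, edgeR adjusted p = 0.024), and 0 to 1 with replicates or libraries left out. The causes were not tested.

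Signs turned for some differences that had not passed the test. Without the block, these were *SLC38A2* with HIF1A siRNA (0.0081) and, with HIF2A siRNA, *SLC7A11* (0.0610) and *SLC1A5* (-0.0054). With the GC and length trend removed, they were *SLC38A2* with HIF1A siRNA (0.0063), *SLC7A11* (0.0425) and *SLC1A5* (-0.0858) with HIF2A siRNA, and the interaction of *SLC7A5* (0.0663). With replicates or libraries left out, the HIF1A siRNA difference ranged from -0.0201 to 0.3173 for *SLC3A2*, -0.0994 to 0.1151 for *SLC1A5*, -0.2878 to 0.0026 for *SLC38A1* and -0.0566 to 0.0402 for *SLC38A2*. The HIF2A siRNA difference ranged from -0.2329 to 0.2456 for *SLC7A11*, -0.0090 to 0.2486 for *SLC7A6*, -0.0796 to 0.0844 for *SLC1A5*, -0.2497 to 0.0324 for *SLC1A4* and -0.5047 to 0.1448 for *SLC43A2*. The double knockdown difference of *SLC3A2* ranged from -0.1728 to 0.0347, and the interaction of *SLC7A5* from -0.0986 to 0.1088. *SLC43A2* had 24 to 105 counts per library, at totals of 13263168 to 20451433 counts.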

Other observations

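Levels by replicate number are given for genes of the amino acid response outside the transporters. Of the 27 tested genes, *ATF4* and genes linked to it, 9 were highest in replicate 3 in all 4 siRNA groups (33.3%, beside 23.7% of all tested genes and 60% of the 10 transporter genes), and 5 were lowest in it in all 4 groups (18.5%, beside 20.5%). The 9 highest were *ASNS*, *PSAT1*, *PSPH*, *CTH* and *GPT2* of amino acid synthesis, *MTHFD2* of folate metabolism, and *CHAC1*, *SESN2* and *XPOT*. *DDIT4*, *DDIT3*, *ATF3* and *PPP1R15A* were instead highest in replicate 1 in all 4 groups (14.8% of the 27, beside 3.02% of all tested genes). *ATF4* and *NUPR1* were highest in replicate 2 in all 4 groups (7.41%, beside 4.52%). Among the 19 tRNA synthetases 6 were highest in replicate 3 in all 4 groups (31.6%, *AARS*, *EPRS*, *GARS*, *IARS*, *MARS* and *WARS*). Among the 18 other amino acid transporters 3 were (16.7%, *SLC6A6*, *SLC36A1* and *SLC38A7*). The shares were 21.4% of the 28 mTORC1 genes, 29.4% of the 17 glutamine and cystine genes and 22.2% of the 9 transcription factor genes, beside the same 23.7%. The genes named here were picked after their values were seen, and the counts are given without a test.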
